A study of Mus musculus with 7 samples.

Results

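Hair keratins and keratin-associated proteins (Krtap) are the building material of the hair fibre and of the sheath that guides it through the skin. They were taken here as every gene of the count table whose symbol starts with Krtap or is Krt25 to Krt28, Krt31 to Krt36 (with an a or b suffix where there is one), Krt71 to Krt75 or Krt81 to Krt87. The table lists 80 such genes among 55423 features, of which 22 are keratins and 58 are Krtap genes. At least 5 reads in 1 tumour were required for testing, which left 78 of them (22 keratins and 56 Krtap genes) among 24433 genes. Krtap29-1 and Krtap31-2 fell below this limit.

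The tumours were squamous cell carcinomas of mouse skin on a C57BL/6J background, measured by bulk RNA sequencing after removal of ribosomal RNA. In Ivl:BRAFV600E mice a tamoxifen-inducible Cre under the involucrin promoter, which is active in committed keratinocytes, switched on 1 copy of the BRAF oncogene. Ivl:BRAFV600E-SOX2LSL mice carried the same Cre and BRAF alleles together with a Rosa26 allele from which Cre releases SOX2 and eGFP. Recombination was induced in both groups by tamoxifen painted on the shaved back at 7 to 10 weeks of age, and tumours were taken at the clinical endpoint. The Ivl:BRAFV600E tumours used were RBAV23-4g, RBAV25-3j and RBAV27-2c, and the Ivl:BRAFV600E-SOX2LSL tumours were RBBD12-1j, RBBD5-2a and RBBD9-2f, each named after its mouse. RBAV23-4g and RBAV25-3j also carried a tdRFP reporter allele. Each group held mice of both sexes. The Ivl:BRAFV600E-SOX2LSL mice were all collected earlier than the Ivl:BRAFV600E mice, so genotype and time to collection cannot be told apart. This model forms tumours on the back, paws, ears and lips, and the site of each sequenced tumour is not given in the sources used here.

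A hair grows from matrix cells at the base of the follicle. The outer ring of these cells forms the inner root sheath, built from Krt25 to Krt28 (type I) paired with Krt71 to Krt74 (type II), and the centre forms the shaft, whose hard keratins are Krt31 to Krt36 (type I) and Krt81 to Krt87 (type II). Keratins assemble as pairs of a type I and a type II chain. Krtap proteins, small and rich in cysteine or in glycine and tyrosine, form the matrix between the keratin filaments of the shaft. Krt75 marks the companion layer that lies outside the inner root sheath. Some shaft keratins are also made outside the hair, among them Krt36 in nail and tongue and Krt84 in the filiform papillae of the tongue.

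Between 23565432 and 31152826 counts lay on genes in each library, so that 3 counts, taken as the lowest level that can be told from 0, stood for 0.0839 to 0.143 CPM (counts per 1000000, after TMM scaling). Intervals and floors given here cover counting error only. The labels were checked on Sox2, which stood at 0.716, 0.508 and 0.238 CPM in the Ivl:BRAFV600E tumours and at 182, 155 and 158 CPM in the Ivl:BRAFV600E-SOX2LSL tumours. The basal keratinocyte markers Krt5 and Trp63 were found in all 6 tumours, at 2371 to 3900 CPM and 261 to 321 CPM. Krt14, also a basal marker, varied more, from 6528 CPM in RBBD12-1j to 31248 CPM in RBAV25-3j. Other markers of the same list of 12 stood apart between the genotypes, such as the differentiation keratin Krt10 at 28863 to 36342 CPM without and 425 to 7214 CPM with the SOX2 allele (adjusted p = 0.0935, edgeR). The list summed to 124906 to 192178 CPM without SOX2 and to 20020 CPM in RBBD12-1j, 75575 CPM in RBBD5-2a and 66765 CPM in RBBD9-2f. In bulk tissue, fewer cells of a type and less RNA per cell cannot be told apart.

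Hair genes were abundant in some tumours and almost missing in others, and this split did not follow genotype. The 80 genes together summed to 965 CPM in RBAV23-4g, 10.9 CPM in RBAV25-3j and 575 CPM in RBAV27-2c. In the Ivl:BRAFV600E-SOX2LSL tumours they summed to 16.8 CPM in RBBD12-1j, 61.4 CPM in RBBD5-2a and 214 CPM in RBBD9-2f. Each group thus held 1 tumour with next to no hair transcripts, and the groups overlapped. Of the 78 tested genes, 61 had no read in RBAV25-3j and 65 had none in RBBD12-1j. In RBAV23-4g and RBAV27-2c, by contrast, 2 and 0 genes had no read. RBBD9-2f was above RBAV25-3j for 75 of the 78 genes, although it carried the SOX2 allele. The order RBAV23-4g and RBAV27-2c above RBBD9-2f above RBBD5-2a was kept by 55 of the 78. At their highest, in RBAV23-4g, hair genes took 0.0908% of all counts.

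**Figure D1:**
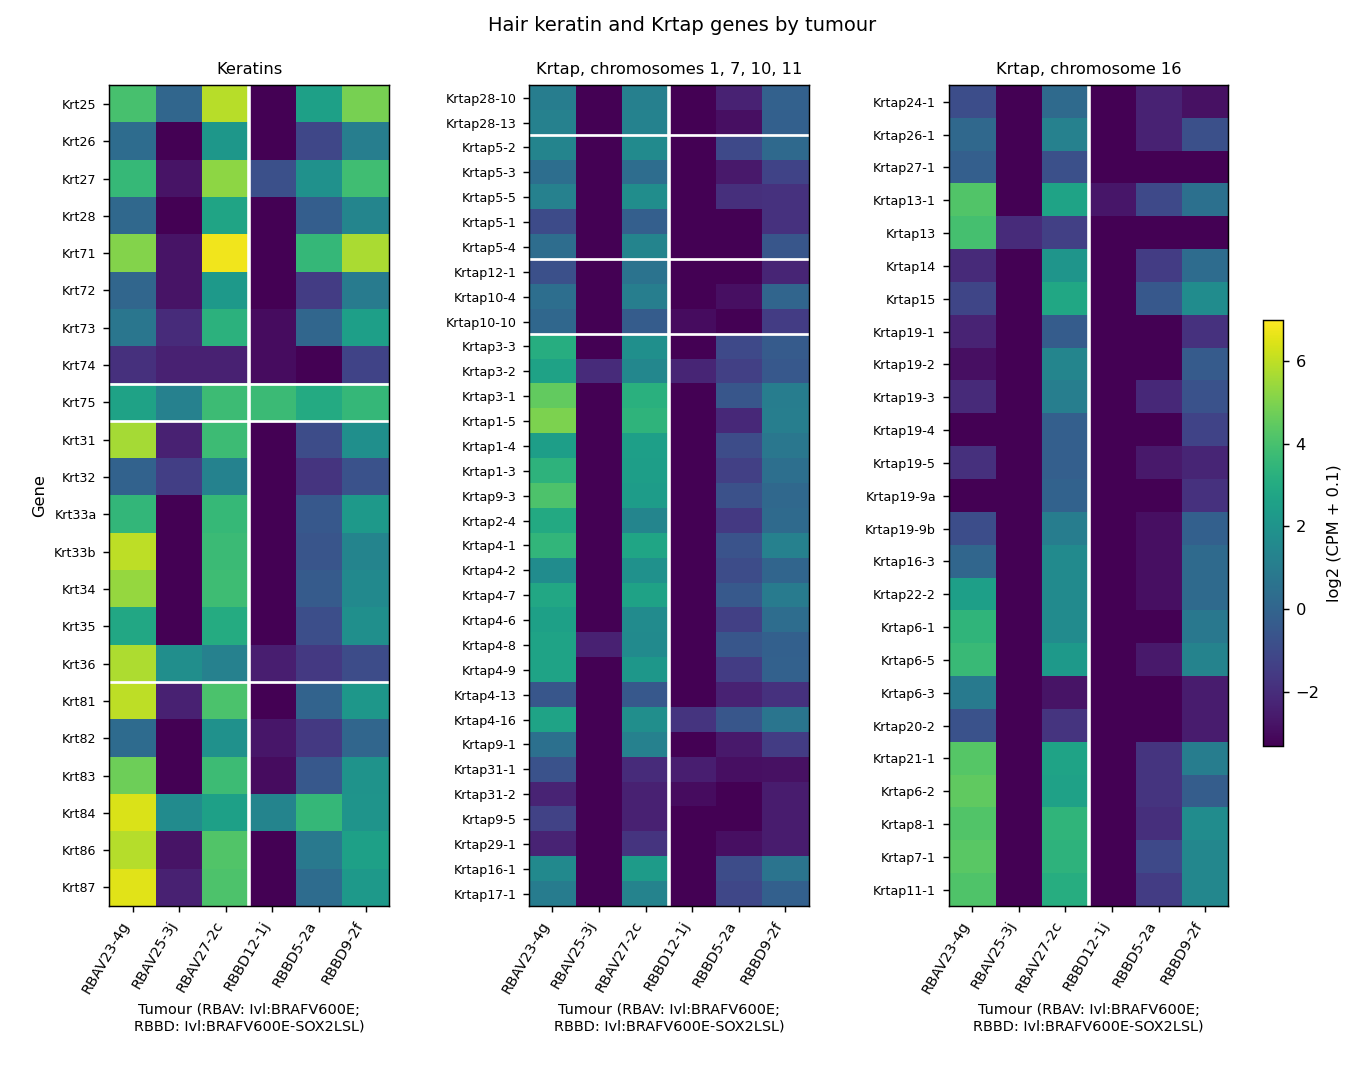
Level of each of the 80 hair genes (rows) in each tumour (columns) as log2 (CPM + 0.1), with white lines between genotypes and between gene classes or chromosomes. RBAV25-3j and RBBD12-1j are dark for nearly every gene except Krt75, Krt84 and, in RBAV25-3j, Krt36.

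Tested gene by gene, no hair gene passed the threshold between the genotypes. By edgeR's quasi-likelihood test with Benjamini-Hochberg adjustment, 0 of 78 had an adjusted p below 0.05, where 3.90% of all genes tested did (1.51% lower and 2.39% higher with SOX2). At an unadjusted p below 0.05 there were 11 of 78 hair genes (14.1%), all lower with SOX2 and 6 of them with 5 reads in some tumour of each genotype, against 25.7% of all genes in either direction and 11.2% lower with SOX2. DESeq2's Wald test called 3, Krtap5-5, Krtap3-2 and Krtap27-1, of the 68 for which it gave an adjusted p, where it called 18.2% of all genes. limma voom called 0 and had 0 of 78 at an unadjusted p below 0.05, against 8.77% and 27.8% of all genes. Without a filter on low counts edgeR called Krt36 alone of 80 hair genes (26 at an unadjusted p below 0.05), against 5.24% of all genes (19.9% unadjusted). The smallest adjusted p in the edgeR test was 0.0607, for Krt36. The levels of the groups did not overlap for 2 of 78 hair genes (2.56%), Krt36 and Krtap13, against 34.2% of all genes.

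The fitted differences nevertheless nearly all pointed one way. The median log2 fold change over the 78 genes, Ivl:BRAFV600E-SOX2LSL over Ivl:BRAFV600E, was -2.62, against 0.04 over all genes tested. It was -2.46 with genes at or under the floor in every SOX2 tumour set at their bound. A value below 0 was found for 77 of 78, where 47.2% of all genes had one, and a value below -2 for 57 of 78, where 3.79% of all genes had one. For 9 of the 78 (all Krtap genes) the 5 reads were reached in Ivl:BRAFV600E tumours only, so the limit itself fixed their direction. Of the other 69, 68 had a value below 0 and 48 a value below -2, with a median of -2.55. Members of such a set share the same cells, so they are not independent of each other. The spread within groups was of the same size as the difference, since the median SD of log2 CPM within groups was 2.61 for hair genes and 0.43 for all genes. Leaving out RBBD9-2f took the median to -4.91, and leaving out RBBD12-1j took it to -2.07. Without RBAV27-2c, 62 of 78 had a value below 0, against 46.8% of all genes. Without RBAV25-3j, 47 hair genes had an unadjusted p below 0.05, against 18.8% of all genes, and again 0 passed adjustment, against 0.207%.

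**Figure D2:**
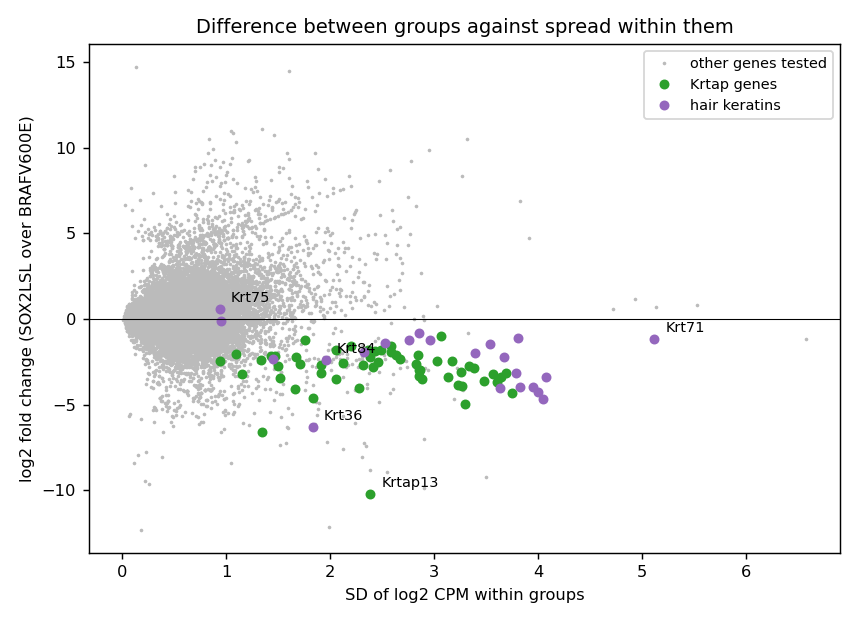
Fold change between genotypes (vertical axis, log2) against the SD of log2 CPM within groups (horizontal axis) for hair keratins (purple), Krtap genes (green) and all other genes tested (grey). Hair genes lie below 0, except Krt75, and most lie far to the right of other genes, with a median SD of 2.61 against 0.43.

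Promoter sequences of the hair genes were read from RefSeq (GRCm38.p6), in which 66 of the 80 genes had an entry of 250 bases before to 50 bases after the start. The letters TATAAA, those of the TATA box, stood on either strand of 54 of the 66 windows (81.8%), against 13.6% of 32851 windows of all genes. On the gene's own strand and 10 to 60 bases before the start, a range chosen after the positions were seen, they stood in 47 of 66 windows (71.2%) and in 2.77% of all. The median GC content was 42.3% for hair gene windows and 52.7% for all. The following stretches are the 100 bases before the start, all on the minus strand and written 5′ to 3′, with capitals for matches on either strand to TATAAA, to CTTTGAA or CTTTGAT (the LEF1 type, which share their first 6 letters) or to TTAAT (homeodomain type). Krt71, Krt25, Krt33b, Krtap1-5 and Krtap6-2 are shown as examples of abundant sheath, shaft and Krtap genes, and Krt36, Krt84 and Krt75 because their levels did not follow those of the other genes.
Krt71 (chr15:101743098-101743197): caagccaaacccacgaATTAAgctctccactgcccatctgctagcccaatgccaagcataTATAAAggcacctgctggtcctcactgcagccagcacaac
Krt25 (chr11:99322952-99323051): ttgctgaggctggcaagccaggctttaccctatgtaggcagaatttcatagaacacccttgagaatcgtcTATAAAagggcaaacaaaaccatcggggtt
Krt33b (chr11:100029869-100029968): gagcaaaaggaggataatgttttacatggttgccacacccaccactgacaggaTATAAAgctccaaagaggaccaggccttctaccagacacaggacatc
Krtap1-5 (chr11:99581017-99581116): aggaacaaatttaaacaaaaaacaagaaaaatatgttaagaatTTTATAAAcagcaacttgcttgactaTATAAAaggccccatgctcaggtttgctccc
Krtap6-2 (chr16:89420112-89420211): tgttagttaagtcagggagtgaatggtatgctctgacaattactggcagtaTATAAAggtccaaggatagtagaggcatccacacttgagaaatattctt
Krt36 (chr11:100105627-100105726): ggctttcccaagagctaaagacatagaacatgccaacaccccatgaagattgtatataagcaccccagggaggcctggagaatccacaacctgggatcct
Krt84 (chr15:101532821-101532920): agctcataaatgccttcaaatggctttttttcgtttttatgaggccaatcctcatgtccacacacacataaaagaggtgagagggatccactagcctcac
Krt75 (chr15:101573905-101574004): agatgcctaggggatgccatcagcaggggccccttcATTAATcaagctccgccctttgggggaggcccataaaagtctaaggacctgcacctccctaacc

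In these stretches the 5 example genes held TATAAA close to the start, and Krt36, Krt84 and Krt75 held none there. Only exact matches were counted, so similar letters such as tatataag in Krt36 and cataaaag in Krt84 and Krt75 were left out. The windows of 12 hair genes had no TATAAA on either strand, among them Krt36, Krt75, Krt82 and Krtap27-1. CTTTGAA stood in 14 of 66 windows (21.2%, against 5.14% of all), CTTTGAT in 4 (6.06%, against 3.73%) and TTAAT in 37 (56.1%, against 27.1%). Among the 5 type I shaft keratins with a window, 4 held CTTTGAA. A match describes letters in a window and not a bound site.

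Among the inner root sheath keratins, Krt71, the main type II partner of the sheath, had the highest level per length. It was the highest of all hair genes in RBAV27-2c, RBBD5-2a and RBBD9-2f, at 49.97, 5.30 and 23.5 CPM per kilobase of exon. In RBAV23-4g, the tumour with the most hair transcripts, it stood at 15.4 CPM per kilobase, below Krt87 at 40.7 and Krt33b at 39.2. In CPM, Krt71 stood at 33.7 CPM in RBAV23-4g, 0.0462 CPM (1 read) in RBAV25-3j and 109 CPM in RBAV27-2c. With SOX2 it stood at 0 CPM in RBBD12-1j, 11.6 CPM in RBBD5-2a and 51.4 CPM in RBBD9-2f. The groups overlapped, and the log2 fold change was -1.18 ± 1.92 (SE, adjusted p = 0.733, edgeR, n = 3 per group).

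Krt25, a type I partner of Krt71, stood at 15.9, 0.970 and 58.9 CPM in RBAV23-4g, RBAV25-3j and RBAV27-2c, and at 0, 5.77 and 29.5 CPM in RBBD12-1j, RBBD5-2a and RBBD9-2f. It was the only sheath keratin with more than 3 reads in RBAV25-3j, where it had 21. Krt27, another type I sheath keratin, was at 11.9, 0.0462 and 37.9 CPM without and at 0.476, 3.66 and 14.2 CPM with the SOX2 allele, in the same order of tumours. It alone among the sheath keratins had more than 3 reads in RBBD12-1j, with 17. Neither passed the test between genotypes (adjusted p = 0.715 for Krt25 and 0.594 for Krt27, edgeR).

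The weaker sheath keratins other than Krt74 kept the order RBAV27-2c above RBBD9-2f above RBAV23-4g above RBBD5-2a. Krt26 and Krt28, type I chains of the inner root sheath, peaked at 4.32 and 6.37 CPM in RBAV27-2c and had no read in RBAV25-3j or RBBD12-1j. Krt72 and Krt73, type II chains of the cuticle of the sheath, peaked at 4.66 and 9.88 CPM in RBAV27-2c and had at most 3 reads in RBAV25-3j and RBBD12-1j. Their log2 fold changes lay between -1.42 for Krt72 and -0.82 for Krt73. Krt74, annotated as a transcribed unitary pseudogene in the mouse, had between 0 and 9 reads per tumour. All 7 sheath keratins other than Krt74 were higher in RBAV27-2c than in RBAV23-4g, and all 7 were higher in RBBD9-2f than in RBAV23-4g. With RBAV27-2c left out, their fold changes turned to the other direction, from 0.03 for Krt27 to 1.31 for Krt73.

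Shaft keratins had another leader. Krt87, a type II hair keratin, stood at 92.8 CPM in RBAV23-4g, 0.0924 CPM in RBAV25-3j and 17.4 CPM in RBAV27-2c, and at 0, 1.17 and 4.73 CPM in RBBD12-1j, RBBD5-2a and RBBD9-2f. RBAV23-4g alone carried most of this signal, and the low tumour of each genotype had at most 2 reads. The log2 fold change was -4.25 ± 1.93 (SE, adjusted p = 0.219, edgeR, n = 3 per group).

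Krt33b, a type I keratin of the hair cortex, stood at 61.9, 0 and 13.0 CPM in RBAV23-4g, RBAV25-3j and RBAV27-2c. With SOX2 it stood at 0, 0.551 and 2.46 CPM in RBBD12-1j, RBBD5-2a and RBBD9-2f, for a log2 fold change of -4.67 ± 1.97 (adjusted p = 0.191, edgeR). Most of the remaining cortex keratins were also highest in RBAV23-4g. Krt31 and Krt34 (type I) reached 49.3 and 40.9 CPM in RBAV23-4g, and Krt81, Krt83 and Krt86 (type II) reached 62.6, 25.95 and 57.1 CPM there. In RBBD9-2f these 5 genes lay between 2.85 and 5.67 CPM, and in RBAV25-3j and RBBD12-1j none had more than 2 reads. Their adjusted p values lay between 0.227 and 0.303.

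Several of these sequences are close copies of one another, and reads may have been split between them. Of the stretches of 100 bases in the longest transcript, 29.0% of Krt81, 24.6% of Krt86, 17.5% of Krt34 and 14.0% of Krt31 also occur in another gene. For Krt71, Krt36 and Krt84 the share was 0%. Over all 78 tested genes, 18 shared more than 10% and 43 shared none.

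Not every shaft keratin was highest in RBAV23-4g. Krt35, a type I chain that appears early, in the matrix and cuticle, stood at 7.16 CPM in RBAV23-4g and 8.12 CPM in RBAV27-2c. Krt32 and Krt82, the type I and type II keratins of the hair cuticle, stood at 0.853 and 1.13 CPM in RBAV23-4g and at 2.28 and 3.61 CPM in RBAV27-2c. Together with Krt33a (11.2 and 12.1 CPM) these were the 4 of 13 shaft keratins that were higher in RBAV27-2c. None of the 13 was higher in RBBD9-2f than in RBAV23-4g.

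**Figure D3:**
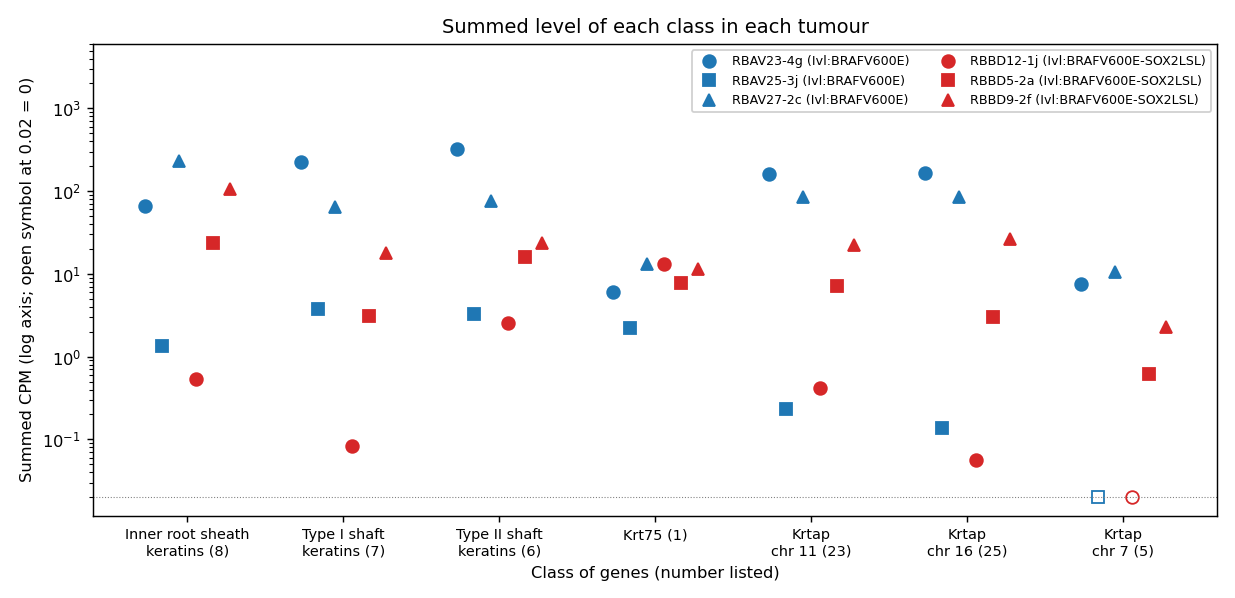
Summed CPM (log axis) of each class of hair genes in each tumour, with blue for Ivl:BRAFV600E and red for Ivl:BRAFV600E-SOX2LSL and open symbols for 0. Sheath keratins are highest in RBAV27-2c (231 CPM), shaft keratins and the Krtap genes of chromosomes 11 and 16 are highest in RBAV23-4g, and Krt75 keeps within 2.22 to 13.2 CPM.

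Among the 4 tumours that expressed hair genes, the share of shaft keratins was highest in RBAV23-4g. Sheath keratins summed to 66.3, 1.34 and 231 CPM in RBAV23-4g, RBAV25-3j and RBAV27-2c, and to 0.532, 23.4 and 107.4 CPM in RBBD12-1j, RBBD5-2a and RBBD9-2f. Shaft keratins without Krt36 and Krt84 made up 86.1% of the reads on them and on sheath keratins in RBAV23-4g (95% Clopper-Pearson interval 85.5 to 86.7%, 13991 reads). The share was 36.4% in RBAV27-2c (35.3 to 37.5%), 24.3% in RBBD5-2a (21.6 to 27.1%) and 25.5% in RBBD9-2f (24.1 to 26.9%). In RBAV25-3j and RBBD12-1j it rested on 42 and 22 reads. Krt36 and Krt84 were set aside after their levels were seen. With all 13 shaft keratins the share was 89.2% in RBAV23-4g, 37.8% in RBAV27-2c, 45.2% in RBBD5-2a and 27.7% in RBBD9-2f, so that RBBD5-2a came above RBAV27-2c, and it was 84.0% in RBAV25-3j and 83.0% in RBBD12-1j. Each value describes 1 tumour, and no test of the balance between genotypes was made.

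Krt36, Krt84 and Krt75 did not follow the rest. Krt36 stood at 52.5 CPM in RBAV23-4g, 3.37 CPM in RBAV25-3j and 2.23 CPM in RBAV27-2c. In the SOX2 tumours it stood at 0.0839 CPM in RBBD12-1j, 0.227 CPM in RBBD5-2a and 0.433 CPM in RBBD9-2f, which is 3, 7 and 12 reads. Every Ivl:BRAFV600E tumour was thus above every Ivl:BRAFV600E-SOX2LSL tumour, and RBAV25-3j, in which Krt84 was the only other shaft keratin above 6 reads, had 73 reads. The log2 fold change was -6.31 ± 1.48 (SE, unadjusted p = 0.00351, adjusted p = 0.0607, edgeR, n = 3 per group). Over the alternatives of the analysis the adjusted p ranged from 0.0217 to 0.223 and the fold change from -6.95 to -3.50 on the log2 scale, the weakest of these without RBAV23-4g.

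Krt84, a type II keratin of tongue papillae, was detected in every tumour. Its levels were 84.7, 3.05 and 5.80 CPM in RBAV23-4g, RBAV25-3j and RBAV27-2c, and 2.43, 11.6 and 4.01 CPM in RBBD12-1j, RBBD5-2a and RBBD9-2f. RBAV23-4g stood apart from the 5 others, which overlapped between genotypes. The log2 fold change of -2.38 ± 1.25 (adjusted p = 0.274, edgeR) turned to 0.44 when RBAV23-4g was left out.

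Krt75, the companion layer keratin, was also found throughout, at 6.002, 2.22 and 13.2 CPM without and at 13.1, 7.84 and 11.5 CPM with the SOX2 allele. It was the only hair gene with a fold change above 0 (0.60 ± 0.57 on the log2 scale, adjusted p = 0.537, edgeR). RBBD12-1j, with 65 of 78 hair genes at 0, had 469 reads of Krt75. The 3 genes together made up 78.9% of the summed level of hair genes in RBAV25-3j and 93.3% in RBBD12-1j, but 3.69% in RBAV27-2c. Without them, 2 and 3 of the other 75 tested hair genes had more than 3 reads in RBAV25-3j and RBBD12-1j.

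**Figure D4:**
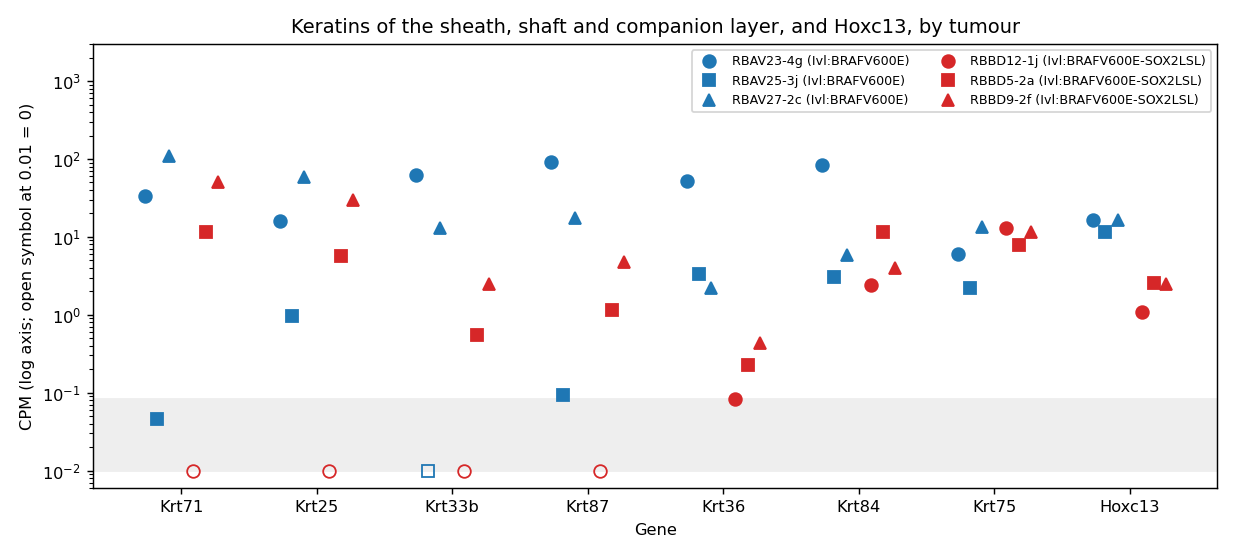
CPM (log axis) of 7 keratins and of Hoxc13 in each tumour, with Ivl:BRAFV600E in blue, Ivl:BRAFV600E-SOX2LSL in red, open symbols for 0 and grey for levels below 3 counts. Krt36 and Hoxc13 separate the genotypes, and Krt84 and Krt75 are present in all 6 tumours. Krt71, Krt33b and Krt87 are near 0 in 1 tumour of each genotype, and Krt25 is at 0 in RBBD12-1j and at 0.970 CPM in RBAV25-3j.

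Krtap genes followed the shaft keratins in their overall level. The 58 genes summed to 344 CPM in RBAV23-4g, 0.370 CPM in RBAV25-3j and 190.4 CPM in RBAV27-2c, and to 0.504, 10.9 and 54.2 CPM in RBBD12-1j, RBBD5-2a and RBBD9-2f. Of the reads on Krtap genes and on shaft keratins without Krt36 and Krt84, Krtap genes took 45.6% in RBAV23-4g (44.9 to 46.2%, Clopper-Pearson) and 59.0% in RBAV27-2c (57.8 to 60.2%). They took 59.3% in RBBD5-2a (55.2 to 63.4%) and 59.6% in RBBD9-2f (57.6 to 61.5%). These 3 shares lay within each other's intervals, and that of RBAV23-4g lay below them. With Krt36 and Krt84 counted as shaft keratins the shares were 38.6% in RBAV23-4g, 57.6% in RBAV27-2c, 36.2% in RBBD5-2a and 56.8% in RBBD9-2f, so that RBBD5-2a fell to the level of RBAV23-4g.

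Most Krtap reads came from the clusters of chromosomes 11 and 16. On chromosome 11, Krtap1-5, which encodes a high-sulphur protein, was the highest Krtap gene in RBAV23-4g. It stood at 31.3, 0 and 10.45 CPM in RBAV23-4g, RBAV25-3j and RBAV27-2c, and at 0, 0.130 and 2.06 CPM in RBBD12-1j, RBBD5-2a and RBBD9-2f (log2 fold change -4.29 ± 1.94, adjusted p = 0.218, edgeR). Its neighbours Krtap3-1, Krtap9-3 and Krtap4-1 reached 22.8, 17.1 and 11.05 CPM in RBAV23-4g, and had no read in RBAV25-3j or RBBD12-1j. In RBAV27-2c and RBBD9-2f, Krtap8-1 of chromosome 16 was higher than Krtap1-5, at 10.6 and 3.14 CPM. Per kilobase of exon, Krt71 had a mean over the 6 tumours of 15.7 CPM and Krtap8-1 of 9.27 CPM. Per kilobase of coding sequence the means were 21.8 and 29.1 CPM, so the order between keratins and Krtap genes rests on the length used.

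On chromosome 16, Krtap6-2, Krtap7-1, Krtap8-1, Krtap11-1, Krtap13-1 and Krtap21-1 led. The first 3 encode proteins rich in glycine and tyrosine. Krtap6-2 stood at 22.2, 0 and 5.84 CPM in RBAV23-4g, RBAV25-3j and RBAV27-2c, and at 0, 0.194 and 0.722 CPM in RBBD12-1j, RBBD5-2a and RBBD9-2f (log2 fold change -4.98 ± 1.84, adjusted p = 0.149, edgeR). The other 5 lay between 17.8 and 20.2 CPM in RBAV23-4g, between 6.18 and 10.6 CPM in RBAV27-2c and between 1.30 and 3.14 CPM in RBBD9-2f, and had at most 2 reads in RBAV25-3j and RBBD12-1j.

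The Krtap genes with the smallest p values were weak or carried by 1 tumour. Krtap13 had 450 reads in RBAV23-4g (15.3 CPM), 3 in RBAV25-3j and 6 in RBAV27-2c, and none in any SOX2 tumour. It was at least 54.5-fold lower with SOX2, counted against a floor of 3 counts per library (adjusted p = 0.132, edgeR), and nearly all of this rested on RBAV23-4g. Of its stretches of 100 bases, 16.9% occur in another gene. Krtap27-1 had 23, 0 and 10 reads in RBAV23-4g, RBAV25-3j and RBAV27-2c and none with SOX2, which makes it at least 4.35-fold lower (adjusted p = 0.130). Krtap3-2, a high-sulphur gene of chromosome 11, stood at 6.04, 0.139 and 2.61 CPM without and 0.112, 0.292 and 0.614 CPM with the SOX2 allele (log2 fold change -3.13 ± 1.15, adjusted p = 0.148, edgeR). DESeq2 called Krtap27-1 and Krtap3-2, with adjusted p values of 0.0318 and 0.0231. Krtap13 and Krtap27-1 reached 5 reads in Ivl:BRAFV600E tumours only, so their direction was fixed by the limit on reads and their p values support nothing.

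Position along chromosome 16 separated the tumours with hair expression. The 25 Krtap genes listed there fall into neighbouring blocks, whose borders were set after the values were seen. In the block from Krtap14 to Krtap16-3 (chr16:88818667-88962873 on GRCm38), all 10 genes were higher in RBAV27-2c than in RBAV23-4g. In the block from Krtap22-2 to Krtap11-1 (chr16:89010395-89571183), all 10 genes were higher in RBAV23-4g. The block from Krtap24-1 to Krtap13 (chr16:88610705-88751635) was mixed, with 3 of 5 higher in RBAV23-4g.

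The middle block holds Krtap14, Krtap15, Krtap16-3 and the 7 listed Krtap19 genes, most of which encode small proteins rich in glycine and tyrosine. It summed to 2.32, 0 and 23.6 CPM in RBAV23-4g, RBAV25-3j and RBAV27-2c, and to 0, 1.13 and 8.16 CPM in RBBD12-1j, RBBD5-2a and RBBD9-2f. RBBD9-2f was above RBAV23-4g for 9 of its 10 genes. Krtap15 shows this best, with 10 reads in RBAV23-4g, 148 in RBAV27-2c and 87 in RBBD9-2f, and Krtap14 had 4, 85 and 32 reads. The median log2 ratio of RBAV23-4g over RBAV27-2c, with 0.1 CPM added to both, was -3.14 in this block and 1.26 in the block from Krtap22-2 to Krtap11-1. The latter summed to 129 CPM in RBAV23-4g and 52.1 CPM in RBAV27-2c.

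Promoter windows of this block often lacked the TATA letters. Of the 12 hair gene windows without TATAAA, 6 belong to this block (Krtap14, Krtap15 and Krtap19-1 to Krtap19-4), and 4 of the 6 Krtap19 genes with a window had none. Whether the letters bear on the levels was not tested.

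**Figure D5:**
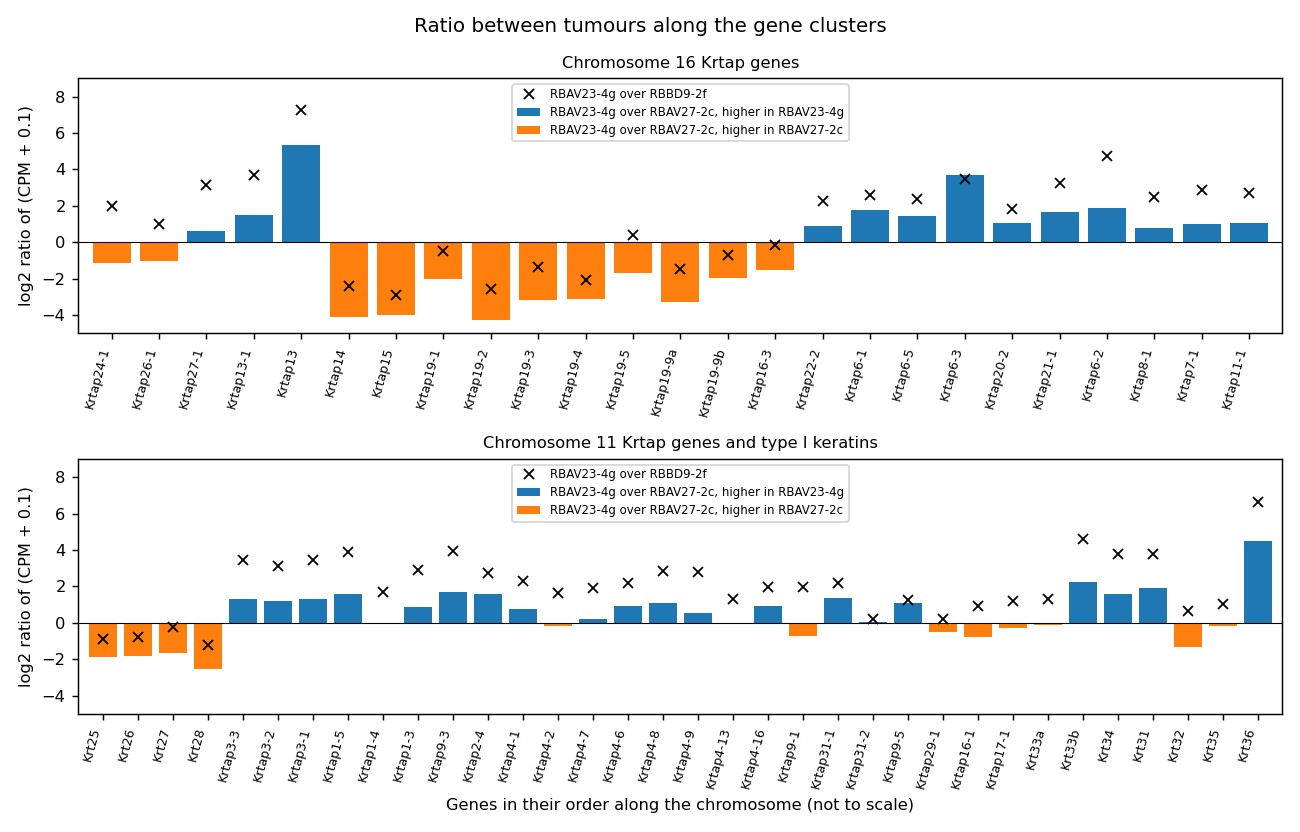
log2 ratio of (CPM + 0.1) between RBAV23-4g and RBAV27-2c (bars) and between RBAV23-4g and RBBD9-2f (crosses) for each gene in its order along chromosomes 16 and 11. The bars of the 10 genes from Krtap14 to Krtap16-3 and of the sheath keratins Krt25 to Krt28 are below 0, and those of the 10 genes from Krtap22-2 to Krtap11-1 are above 0.

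Genes of the hair cuticle leaned to RBAV27-2c as well. Cuticle genes were taken as Krt32, Krt82 and the tested members of the Krtap5, Krtap10, Krtap12, Krtap24 and Krtap26 families, a grouping made after the values were seen. Of these 12 genes, 10 were higher in RBAV27-2c than in RBAV23-4g, with a median log2 ratio of -0.86. Of all 78 tested hair genes, 40 were higher in RBAV23-4g, and of the 56 tested Krtap genes, 26 were higher in RBAV27-2c. Of the 7 cortex keratins Krt31, Krt33a, Krt33b, Krt34, Krt81, Krt83 and Krt86, 6 were higher in RBAV23-4g. Krt35, a chain of matrix and cuticle, and Krt36, Krt84 and Krt87 were placed in neither group. Each side of this comparison is 1 tumour of the same genotype, so it carries no test.

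Among the regulators of hair keratins, Hoxc13 alone passed the edgeR test. Of a list of 25 hair follicle transcription factors and signals, all tested, 1 fell and 0 rose with SOX2 (edgeR, adjusted p below 0.05), where 1.51% of all genes fell and 2.39% rose, and the median log2 fold change was -0.63. DESeq2 called 2 higher and 6 lower, where it called 18.2% of all genes. With limma voom 1 was called higher and 4 lower, against 8.77% of all genes. With edgeR and without RBBD12-1j, 1 was called higher and 5 lower, against 1575 of 23535 genes. The gene that fell was Hoxc13, the homeodomain factor that switches on hair keratin genes. It stood at 16.7, 11.7 and 16.3 CPM in RBAV23-4g, RBAV25-3j and RBAV27-2c, and at 1.09, 2.56 and 2.49 CPM in RBBD12-1j, RBBD5-2a and RBBD9-2f. Its levels did not overlap between the genotypes, which held for 34.2% of all genes. On the same list Foxn1, Msx2, Dlx3, Ovol1, Prdm1, Trps1, Hr, Wnt10a, Wnt5a, Bmp4 and Edar were also lower with SOX2 without overlap. Gata3, Cux1 and Runx1 were higher with SOX2 without overlap. RBAV25-3j held Hoxc13 with next to no hair keratin. The log2 fold change was -2.86 ± 0.36 (SE, adjusted p = 0.0175, edgeR), and 10 of the 13 alternatives called it. The call was lost without RBAV23-4g (adjusted p = 0.0951), RBAV25-3j (adjusted p = 0.0573) or RBAV27-2c (adjusted p = 0.0590).

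Foxn1, the factor lost in nude mice, stood at 27.9, 45.0 and 37.5 CPM without and at 7.55, 27.1 and 24.3 CPM with the SOX2 allele (log2 fold change -0.91, adjusted p = 0.249, edgeR). Its highest level was in RBAV25-3j, where hair keratins were lowest among the Ivl:BRAFV600E tumours. Lef1 and Shh, which mark the growing hair matrix, were scarce, with Lef1 between 0.277 and 1.76 CPM and Shh at most at 0.238 CPM.

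Among 20 tested proteins of shaft and sheath that are not keratins, 1 fell and 0 rose by edgeR, where 1.51% of all genes fell and 2.39% rose. DESeq2 called 5 lower and 1 higher, where it called 18.2% of all genes. By edgeR, 3 were called lower with upper-quartile scaling, without a filter or with edgeR's own filter. Over all genes these settings called 974 of 24433, 1759 of 33568 and 1296 of 17587. Mt4, a metallothionein of stratified epithelia, stood at 117, 165 and 167 CPM without and at 0.252, 3.14 and 5.09 CPM with the SOX2 allele (log2 fold change -5.74, adjusted p = 0.0266, edgeR), a call lost with sex as a covariate or without RBAV23-4g, RBAV25-3j, RBAV27-2c or RBBD5-2a (adjusted p = 0.0565 to 0.119). The other 19 did not pass edgeR's test and did not share one order of tumours. Tchh, trichohyalin of the inner root sheath, stood at 47.3, 7.62 and 149.9 CPM in RBAV23-4g, RBAV25-3j and RBAV27-2c, and at 11.5, 20.8 and 81.8 CPM in RBBD12-1j, RBBD5-2a and RBBD9-2f. Gprc5d, a receptor of hard-keratinising cells, stood at 3.82, 0 and 3.47 CPM without and at 0, 0.227 and 1.16 CPM with the SOX2 allele. Both were low in RBAV25-3j and RBBD12-1j, as hair keratins were (adjusted p = 0.647 for Tchh and 0.364 for Gprc5d, edgeR). Tgm3, a transglutaminase, and Tchhl1 were instead highest in RBAV25-3j, at 6081 and 15.6 CPM. Padi3, a deiminase that acts on trichohyalin, was highest in RBBD12-1j at 9.88 CPM, and S100a3 in RBBD5-2a at 7.84 CPM.

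Markers of other skin cells moved with some of these levels, and their part in them was not tested. The 12 sebaceous markers summed to 5253 CPM in RBAV25-3j, the highest of the 6 tumours, of which Fabp5, also made by keratinocytes, was 4741 CPM. Among the others Elovl3 and Awat1 were at 0 CPM there. These genes and Scd1, Soat1, Far2, Mc5r and Awat2 were each at their lowest of the 6 tumours in RBAV25-3j. Scd1 stood at 88.2 CPM against 214 and 171 CPM in the other Ivl:BRAFV600E tumours, and Soat1 at 7.99 CPM against 20.9 and 24.6 CPM. Dgat2, Pparg and Mgst1 were not at their lowest there, and Plin2 at 144 CPM was the highest of its group. Dgat2 stood at 250.4 CPM against 262 and 265 CPM in the other Ivl:BRAFV600E tumours. Dcn of fibroblasts stood at 3.19 CPM in RBAV25-3j against 49.6 and 113 CPM in the other Ivl:BRAFV600E tumours. The 6 fibroblast markers summed to 726 CPM there, and to between 2074 and 8177 CPM elsewhere. RBBD12-1j, the other tumour nearly free of hair transcripts, held Elovl3 at 8.56 CPM and Dcn at 103 CPM. The 17 bulge and outer root sheath markers summed to 2887, 4858 and 5297 CPM in RBAV23-4g, RBAV25-3j and RBAV27-2c, and to 2710, 4877 and 4386 CPM in RBBD12-1j, RBBD5-2a and RBBD9-2f. Most of this was Krt17. Without it the sums were 566, 309 and 648 CPM, and 981, 560.1 and 837 CPM, lowest in RBAV25-3j, where Lgr5 (0.139 CPM), Lhx2 (0.231), Krt15 (2.63) and Krt79 (1.57) were each at their lowest of the 6 tumours. None of the 17 passed the edgeR test, while DESeq2 called 4 higher with SOX2 and limma voom called 2, where these tests called 18.2% and 8.77% of all genes. Of the 14 tested skeletal muscle markers, 12 rose with SOX2 (edgeR, where 2.39% of all genes rose), the list summing to between 4.48 and 8.36 CPM without it and between 296 and 1300.3 CPM with it. Leaving out 1 tumour took this count to between 0 (without RBAV23-4g) and 13, and limma voom called 4, where it called 8.77% of all genes.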

How the data were processed

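The authors checked reads with FastQC 0.11.8, trimmed them with Trim Galore, aligned them to GRCm38 with HISAT2 2.1.0 and counted them per gene with featureCounts (Subread 1.6.3). They deposited raw counts per gene, without normalisation or pooling. Use of strand and of multimapping reads in counting is not given in the sources used here. Columns were assigned to genotypes by mouse name, 3 tumours per group, and 1 column of uncertain group was not used. The labels list 4 and 3 samples.

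From the counts, genes with at least 5 reads in 1 of the 6 tumours were kept, scaled by TMM and compared with edgeR 4.0.16 in R 4.3.3 (quasi-likelihood test, Benjamini-Hochberg adjustment over 24433 genes at 0.05). Within-group SDs used log2 CPM with a prior count of 2. No 2 libraries were copies of each other (Pearson r of log2 CPM 0.906 to 0.977). Alternatives were DESeq2 1.42.0, limma 3.58.1, other scalings and filters, sex as a covariate, and each tumour left out. Coordinates and exon lengths are from GENCODE M21, and promoters from RefSeq. The script was tested on simulated counts.

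The genes and lists were chosen with earlier results of these data known. Named genes are Sox2, the keratins, the 10 Krtap genes of highest mean CPM, Krtap genes among the 5 smallest p values and genes of the fixed lists. Krtap14, Krtap15 and Krtap5-5 were named after their values were seen. Python 3.11.15, pandas 2.3.3, scipy 1.17.1 and matplotlib 3.10.9 made tables and figures.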

Additional observations from a re-analysis of the deposited data

How the results depend on the processing

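Hair genes called were 0 of 78 in the edgeR test, 3 by DESeq2 and 1 without a filter on low counts, all higher in Ivl:BRAFV600E, and 0 under each other alternative and with each tumour left out (0 to 0). Hair genes called higher in Ivl:BRAFV600E-SOX2LSL were 0 throughout. Over all genes, 954 calls became 3653 by DESeq2, 2142 by limma voom, 1759 without a filter and 228 with sex as a covariate, and lay between 22 and 1575 with a tumour left out. The median log2 fold change of hair genes lay between -4.91 and -2.07 with a tumour left out, at -2.10 by limma voom and at -2.57 with genes at 0 in every SOX2 tumour set at their bound, an alternative chosen after seeing the data.

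Of 988 values of the 78 hair genes under the alternatives, 24 changed sign, 15 of them without RBAV27-2c. Of 448 values of the 35 named hair genes, 14 changed sign and 3 passed the threshold. With a tumour left out, the fold change spanned -3.14 to 0.47 for Krt25, -3.37 to 0.41 for Krt26, -3.01 to 0.026 for Krt27, -2.74 to 1.01 for Krt28, -3.05 to 0.31 for Krt71, -3.87 to 0.44 for Krt72 and -2.96 to 1.31 for Krt73, each lowest without RBBD9-2f and above 0 only without RBAV27-2c. It spanned -2.71 to 0.47 for Krt74 (above 0 without RBAV23-4g, RBBD12-1j or RBBD5-2a) and -3.28 to 0.44 for Krt84 (above 0 without RBAV23-4g). Krt74 turned to 0.087 with sex as a covariate, and by limma voom Krt27 stood at 0.0016 and Krt28 at 0.11. The cause was not tested. No paired analysis was possible because the columns carry no replicate numbers.

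With 3 tumours per group and a within-group SD this large, the number of tumours limits these comparisons, and depth limits members under 3 counts.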

Other observations

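Calls among markers of squamous and oral epithelium rested on the test. Of 7 filiform papilla and oral mucosa markers, Sprr3, a cornified envelope protein of oral epithelium, rose (log2 fold change 3.49, adjusted p = 0.0436, edgeR) and Krt76, a keratin of the palate, fell (log2 fold change -3.58, adjusted p = 0.0335), both with no overlap between groups. These calls held in 7 and 8 of 13 alternatives, and the adjusted p reached 0.139 for Sprr3 and 0.133 for Krt76, both without RBAV23-4g. Krt13, an oral keratin, stood at 2.87, 28.6 and 3.04 CPM without and at 158, 236 and 96.4 CPM with the SOX2 allele (adjusted p = 0.0707). Over all genes 2.39% rose and 1.51% fell by edgeR. DESeq2 called 3 oral markers higher and 2 lower and 7 of 12 keratinocyte markers lower, where it called 18.2% of all genes. By limma voom 4 oral and 3 keratinocyte markers were called, where it called 8.77% of all genes. By edgeR, Sprr1b fell among the 12 keratinocyte markers, Ptprc and Csf1r rose among 8 immune markers, and only Sox2 itself rose among 13 dermal papilla markers. DESeq2 called 4 immune markers higher, and 3 dermal papilla markers higher and 1 lower. With limma voom 3 immune markers were called higher, and 1 dermal papilla marker higher and 1 lower. Sprr1b was called in 7 of 13 alternatives (adjusted p up to 0.128), Ptprc in 5 (up to 0.175) and Csf1r in 7 (up to 0.184). None of 12 sebaceous, 8 melanocyte or 6 fibroblast markers passed the edgeR test, while DESeq2 called 4 sebaceous markers and 1 fibroblast marker and limma voom 1 of each.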
